A study of Homo sapiens with 6 samples.

Results

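The 10 genes described here belong to the NF-kB system, and they were followed in PANC-1, a long-established line of human pancreatic carcinoma cells, after treatment with D(+)-raffinose pentahydrate, a plant trisaccharide. They are the neutrophil-attracting chemokine genes CXCL1, CXCL2, CXCL3, CXCL5 and CXCL8, the cytokine genes IL6 and IL1A, and the regulators NFKBIA, TNFAIP3 and RELB. The genes were chosen by name, with earlier results of these data known. All 10 were found among the 60612 genes of the deposited table. The raffinose group holds 3 libraries of cells given 50 µM of the compound for 24 h, and the untreated group holds 3 libraries whose own sample labels name no compound, vehicle or time. Both groups were grown in the same serum-containing medium. Separate cultures are not mentioned for the libraries within a group, and the spread behind each p-value may therefore be technical. A single cell line was used.

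NF-kB is a family of dimeric transcription factors that are held in the cytoplasm by IkB proteins until a kinase complex marks the inhibitor for destruction. The freed dimers enter the nucleus, bind kappa B sites and switch on chemokine and cytokine genes, together with the genes of their own inhibitors, which close the loop. Pancreatic carcinoma cells often show activity of this pathway, and its secreted products attract neutrophils and act on neighbouring cells.

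Between raffinose-treated and untreated cells, 0 of the 8 genes with enough counts for the test passed it, against 0.122% of all tested genes. IL6 and IL1A were under the minimum on counts. A fit without that minimum, which took in all 10, also called 0 of them, and it called 18 of the 30324 genes it tested. NFKBIA, which encodes the inhibitor IkB-alpha and is itself a rapid NF-kB target, was close to equal in both groups, at 21.6 ± 0.301 CPM with raffinose and 22.5 ± 1.67 CPM without (SD, n = 3 each). RELB, a subunit of the non-canonical NF-kB dimer, had the smallest p-value, at 9.32 ± 2.91 CPM with raffinose and 13.6 ± 1.40 CPM without, and the groups overlapped. The chemokine genes were expressed at low levels, and IL6 and IL1A were near the detection limit in all 6 libraries.

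The promoters of several of these genes are shown first, since they carry the sequence that gives the group its name. The sequences below are the 100 bases just before the transcription start in RefSeq's annotation of GRCh38.p14, written 5′ to 3′ on the strand of the gene. Capitals mark bases that match the kappa B consensus on either strand. In CXCL8, which has no such match, they mark the shorter motif GGNNNTTCC.
CXCL1: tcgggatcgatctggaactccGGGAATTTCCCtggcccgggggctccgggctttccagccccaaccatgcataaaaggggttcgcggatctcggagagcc
CXCL2: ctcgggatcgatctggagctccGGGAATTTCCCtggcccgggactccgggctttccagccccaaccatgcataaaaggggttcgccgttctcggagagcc
CXCL3: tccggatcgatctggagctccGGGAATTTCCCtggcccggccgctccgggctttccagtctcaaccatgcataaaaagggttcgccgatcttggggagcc
CXCL8: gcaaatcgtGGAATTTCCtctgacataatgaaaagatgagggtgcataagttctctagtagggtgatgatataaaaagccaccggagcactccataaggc
IL6: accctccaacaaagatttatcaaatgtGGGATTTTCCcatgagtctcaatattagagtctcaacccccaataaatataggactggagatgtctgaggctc
NFKBIA: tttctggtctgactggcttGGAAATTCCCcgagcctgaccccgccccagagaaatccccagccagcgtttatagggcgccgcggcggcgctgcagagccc
TNFAIP3: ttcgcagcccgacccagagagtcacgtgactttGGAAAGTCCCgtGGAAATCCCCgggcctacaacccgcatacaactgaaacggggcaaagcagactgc

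These windows lie at chr4:73869293-73869392 (plus strand) for CXCL1, chr4:74099196-74099295 (minus) for CXCL2, chr4:74038690-74038789 (minus) for CXCL3 and chr4:73740469-73740568 (plus) for CXCL8. Those of IL6, NFKBIA and TNFAIP3 lie at chr7:22727100-22727199 (plus), chr14:35404750-35404849 (minus) and chr6:137867159-137867258 (plus). The promoter table held 9 of the 10 genes, and RELB was not among them. Each entry covers 300 bases, from 250 before to 50 after the start. The kappa B consensus, searched on both strands, was found in 7 of the 9 genes and in 11.3% of all 35116 promoters of the same length. The shorter motif was found in 8 of the 9 genes and in 20.1% of all promoters, and its matches often lie inside a consensus match. It was chosen after CXCL8 was seen to hold no consensus match, so its share among the 9 is a description only. CXCL5 held the same 11 bases in capitals as CXCL1, CXCL2 and CXCL3, and IL1A held no match of either motif. A match is a run of letters and not a measured binding site.

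The windows of CXCL1, CXCL2 and CXCL3 are near copies of each other, with 89.1% to 94.1% identical positions in pairwise alignment, against 35.6% to 48.0% for pairs that include CXCL5 or CXCL8. These 3 genes lie in 1 cluster on chromosome 4 and arose by duplication. Their transcripts share few exact stretches of read length. Of the distinct 150-base stretches of GENCODE 29 transcripts, the read length in the labels, CXCL2 shared 1.83% with CXCL3, CXCL3 shared 1.15% with CXCL2, and CXCL1 shared none with another gene. Stretches with mismatches and the placing of reads were not examined. Of the 10 genes, 2 have the same coordinates in GENCODE 29 as in the deposited table.

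Levels are given in 2 units. CPM (counts per 1e+06) are the authors' deposited counts scaled to a common library size (TMM), and serve to compare a gene between libraries. FPKM, as deposited, also divide by transcript length and serve to compare genes with each other. The total count per library ran from 59723420 to 66063664. Low counts cluster at multiples of 4, so that 1 read pair seems to add 4, and the libraries would then hold 14930855 to 16515916 read pairs. A count of 0 allows up to 3 read pairs, or 12 in deposited counts, which is 0.182 to 0.201 CPM before scaling, and this limit covers counting error only. Genes were tested with edgeR's quasi-likelihood test, which kept 18863 genes by a minimum on counts, with a call where the p adjusted by Benjamini-Hochberg was under 0.05. Of the 10 genes, 8 passed that minimum, while IL6 and IL1A did not.

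By FPKM the levels of the genes spanned a wide range, and they are given in the order of their mean over the 6 libraries. NFKBIA was highest, at 7.67 ± 0.0700 FPKM with raffinose and 7.78 ± 0.481 FPKM without, above 75.5% of all tested genes. RELB followed at 2.59 ± 0.775 and 3.71 ± 0.348 FPKM in raffinose and untreated cells, and CXCL1 at 1.13 ± 0.190 and 1.33 ± 0.483 FPKM (SD, n = 3 each). These were the 3 genes with a group mean of at least 1 FPKM. NFKBIA, RELB and CXCL1 kept this order without overlap of their ranges in either group. CXCL1 and CXCL2 did not overlap in raffinose libraries but did in untreated ones, and CXCL2 and TNFAIP3 overlapped in both groups, with the mean of CXCL2 the higher in raffinose cells and that of TNFAIP3 the higher in untreated ones. TNFAIP3 lay above CXCL8 without overlap in both groups. Below CXCL8, at 0.267 ± 0.107 FPKM with raffinose and 0.234 ± 0.103 FPKM without, came CXCL3, CXCL5, IL6 and IL1A, with CXCL8 and CXCL3 overlapping in untreated libraries. Neighbours among these 4 overlapped in both groups, except CXCL3 and CXCL5 in untreated libraries. By group mean IL1A stood above IL6 in raffinose cells, and IL6 above CXCL5 in untreated ones.

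**Figure D1:**
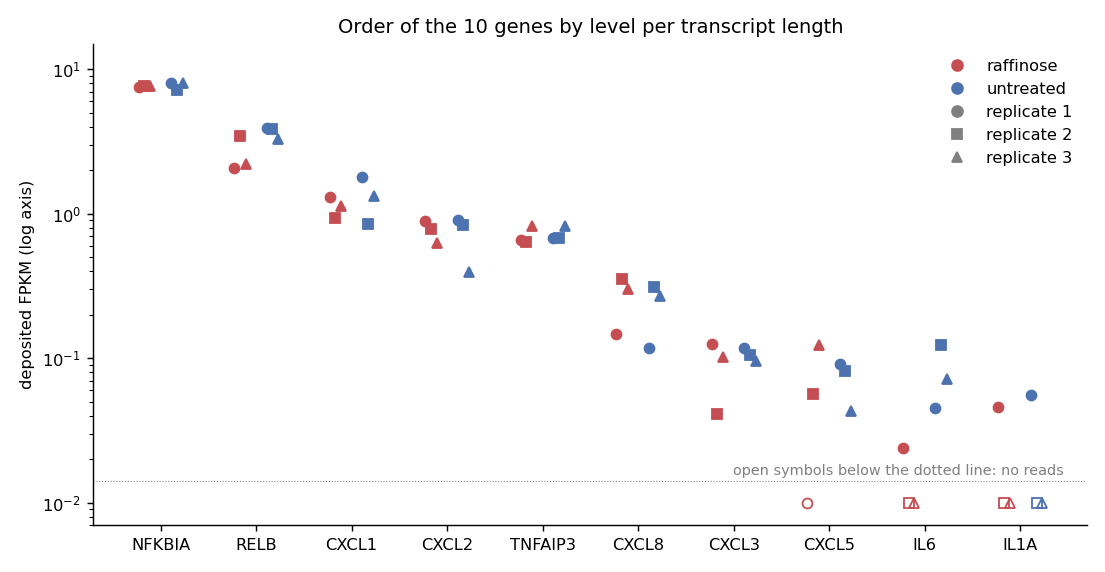
Deposited FPKM (log axis) of the 10 genes in 3 raffinose and 3 untreated libraries, ordered by mean level, with 1 symbol per library and open symbols for libraries with no reads. NFKBIA lies between 7.23 and 8.08 FPKM in all 6 libraries, while IL1A has reads in 1 library of each group.

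Among the feedback inhibitors, NFKBIA (ENSG00000100906, chromosome 14, 35401513 to 35404749, minus strand) stood at 21.4, 21.9 and 21.4 CPM in raffinose replicates 1, 2 and 3, against 23.7, 20.6 and 23.2 CPM in untreated replicates 1, 2 and 3. The raffinose libraries lay within the range of the untreated ones. Its log2 fold change was -0.06 (SE 0.085, edgeR adjusted p = 0.813), with a 95% interval from -0.26 to 0.14, or 0.834-fold to 1.11-fold. This is the narrowest interval among the 8 tested genes, and each library held 331.8 to 380.2 estimated read pairs of NFKBIA.

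TNFAIP3 (ENSG00000118503, chromosome 6, 137867214 to 137883312, plus strand) encodes A20, a ubiquitin-editing enzyme that shuts off signalling to NF-kB. Its level was 3.997, 3.90 and 4.85 CPM in raffinose replicates 1, 2 and 3, against 4.28, 4.20 and 5.07 CPM in untreated replicates 1, 2 and 3. The groups overlapped, and replicate 3 was highest in each. The log2 fold change was -0.09 (SE 0.15, 95% interval -0.46 to 0.28, edgeR adjusted p = 0.851), and it was 0.0022 without untreated replicate 3. WAKMAR2, a gene on the opposite strand that overlaps TNFAIP3, had deposited counts of 0 to 13 against 247 to 312 for TNFAIP3, and whether the counting used the strand is not given in the sources used here.

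RELB (ENSG00000104856, chromosome 19, 45001449 to 45038198, plus strand) had 7.46, 12.7 and 7.82 CPM in raffinose replicates 1, 2 and 3, against 14.8, 14.0 and 12.1 CPM in untreated replicates 1, 2 and 3. Raffinose replicates 1 and 3 lay below every untreated library, and raffinose replicate 2 lay inside the untreated range. The log2 fold change was -0.55 (SE 0.22, 95% interval -1.09 to -0.0090), with an unadjusted p of 0.0472 and an adjusted p of 0.370 by edgeR. DESeq2 gave an adjusted p of 0.205. Without raffinose replicate 2 the log2 fold change was -0.83 with an edgeR adjusted p of 0.207. RELB was the only 1 of the 8 tested genes with an unadjusted p under 0.05, or 12.5%, and 13.3% of all tested genes were under that value.

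**Figure D2:**
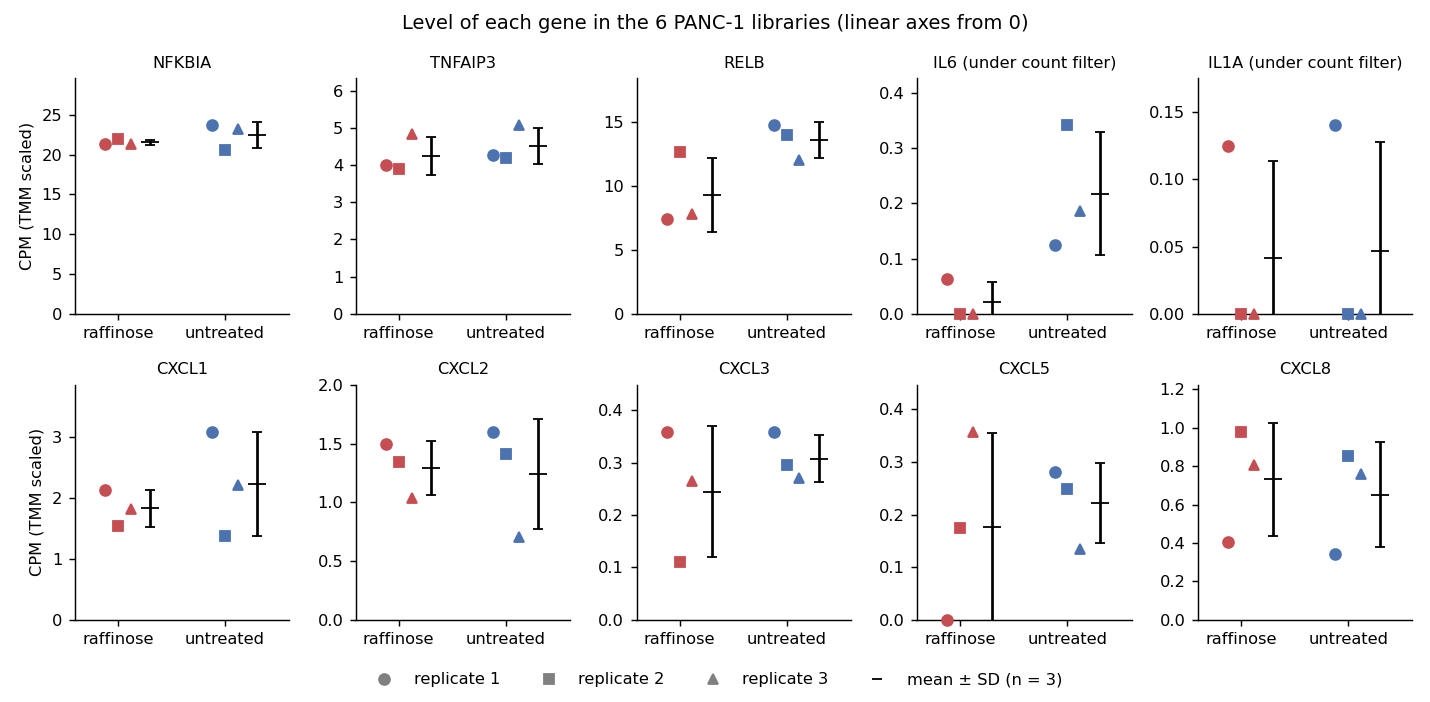
CPM after TMM scaling (linear axes from 0) of each gene in raffinose (left) and untreated libraries (right), with 1 symbol per library and the mean ± SD of 3, drawn no lower than 0. RELB is at 7.46 to 12.7 CPM in raffinose and 12.1 to 14.8 CPM in untreated libraries, and IL6 reaches 0.0625 CPM in raffinose and 0.125 to 0.341 CPM in untreated libraries.

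The 5 chemokine genes encode ligands of the receptor CXCR2, and CXCL8 also binds CXCR1. CXCL1 (ENSG00000163739, chromosome 4, 73869393 to 73871308, plus strand) had 2.12, 1.53 and 1.82 CPM in raffinose replicates 1, 2 and 3, against 3.08, 1.38 and 2.21 CPM in untreated replicates 1, 2 and 3. All raffinose libraries lay within the untreated range, whose ends were untreated replicates 1 and 2. The log2 fold change was -0.29 (SE 0.32, 95% interval -1.05 to 0.47, edgeR adjusted p = 0.752). Without untreated replicate 1 it was 0.022.

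CXCL2 (ENSG00000081041, chromosome 4, 74097040 to 74099195, minus strand) had 1.499, 1.34 and 1.04 CPM in raffinose replicates 1, 2 and 3, against 1.604, 1.41 and 0.710 CPM in untreated replicates 1, 2 and 3. The groups overlapped, with untreated libraries at both ends of the range. Its log2 fold change was 0.06 (SE 0.34, 95% interval -0.77 to 0.88, edgeR adjusted p = 0.964). It was -0.061 without raffinose replicate 1 and -0.22 without untreated replicate 3.

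CXCL8 (ENSG00000169429, chromosome 4, 73740541 to 73743716, plus strand), which encodes interleukin 8, had 0.406, 0.980 and 0.808 CPM in raffinose replicates 1, 2 and 3, against 0.343, 0.853 and 0.760 CPM in untreated replicates 1, 2 and 3. Replicate 1 was lowest in each group. The log2 fold change was 0.17 (SE 0.48, 95% interval -0.98 to 1.32, edgeR adjusted p = 0.916). It was -0.10 without raffinose replicate 2 and -0.14 without untreated replicate 1.

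CXCL3 (ENSG00000163734, chromosome 4, 74036589 to 74038807, minus strand) had deposited counts of 23, 7 and 17 in raffinose replicates 1, 2 and 3, against 23, 19 and 16 in untreated replicates 1, 2 and 3. CXCL5 (ENSG00000163735, chromosome 4, 73995642 to 73998677, minus strand) had counts of 0, 11 and 23 with raffinose, against 18, 16 and 8 without. Divided by 4, these are at most 5.75 read pairs in a library, and the groups overlapped for both genes. Their log2 fold changes were -0.33 (95% interval -1.62 to 0.96) and -0.32 (95% interval -2.98 to 2.34), and the interval of CXCL5 holds both a doubling and its inverse. Without raffinose replicate 2 the value of CXCL3 was 0.017, and without raffinose replicate 1 that of CXCL5 was 0.26. The edgeR adjusted p was 0.838 for CXCL3 and 0.935 for CXCL5. DESeq2 gave no adjusted p for CXCL3, CXCL5 and CXCL8.

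As a sum, the 5 chemokine genes reached 4.39, 4.14 and 4.29 CPM in raffinose replicates 1, 2 and 3, against 5.67, 4.19 and 4.09 CPM in untreated replicates 1, 2 and 3. The groups overlapped, and untreated replicate 1 was highest. By FPKM, CXCL1 and CXCL2 together made up 77.1% to 89.0% of the summed chemokine level with raffinose and 77.1% to 89.2% without. The receptor genes CXCR1 and CXCR2 were listed with no reads in any of the 6 libraries.

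IL6 (ENSG00000136244, chromosome 7, 22725884 to 22732002, plus strand) encodes interleukin 6, which signals through IL6R and the shared receptor subunit IL6ST. Its deposited counts were 4, 0 and 0 in raffinose replicates 1, 2 and 3, against 8, 22 and 11 in untreated replicates 1, 2 and 3. Only untreated replicate 2 was above the limit of 12. It was the only 1 of the 10 genes whose groups did not overlap, and it is singled out here after its values were seen. Among the genes with reads that were under the count minimum, 4.29% had groups that did not overlap, and among those above it 21.5%, where 0 of the 8 tested genes were such. The share of 4.29% takes in genes with reads in only 1 or 2 libraries, such as IL1A. Their groups always overlap, which lowers that share. In read pairs, estimated as counts divided by 4, the raffinose libraries held 1 in all and the untreated libraries 10. The ratio was 0.10, with an exact 95% interval from 0.0023 to 0.70 for counting error only. That interval pools the read pairs and leaves out the spread between libraries and the choice of IL6 by its values. An exact permutation test over the 6 libraries gave p = 0.10, which any gene with groups that do not overlap would get. In an edgeR fit without a minimum on counts, the log2 fold change of IL6 was -3.26 (SE 1.45, unadjusted p = 0.0615, adjusted p = 0.557). The antisense gene IL6-AS1 had a count of 0 in all 6 libraries.

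IL1A (ENSG00000115008, chromosome 2, 112773925 to 112784493, minus strand), the gene of the alarmin interleukin 1 alpha, had a count of 8 in raffinose replicate 1 and 9 in untreated replicate 1. It was at 0 in replicates 2 and 3 of each group. All 6 counts lie under the limit of 12 given above, and no fold is given.

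The log2 fold change was above 0 for 2 of the 8 tested genes and below 0 for 6, with a median of -0.19, against a median of 0.0059 over all tested genes. By edgeR 0 of the 8 were called, against 0.122% of all tested genes, namely 7 higher (0.0371%) and 16 lower (0.0848%). At an unadjusted p under 0.05 there was 1, RELB. DESeq2 gave an adjusted p for 5 of the 8 and called 0 of these, against 3.51% of all tested genes, or 1.35% higher and 2.17% lower. The direction of CXCL1, CXCL2, CXCL3, CXCL5, CXCL8 and TNFAIP3 turned when at least 1 of the 6 libraries was left out, while the log2 fold changes of RELB and NFKBIA stayed below 0.

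**Figure D3:**
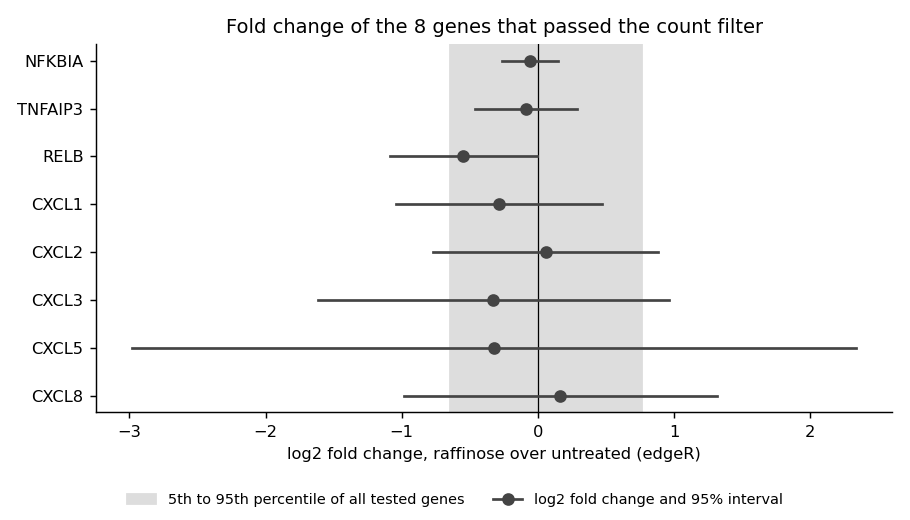
Log2 fold change of raffinose over untreated (horizontal axis, edgeR) with its 95% interval for the 8 tested genes, and a grey band from the 5th to the 95th percentile of all tested genes. The interval of NFKBIA runs from -0.26 to 0.14 and that of CXCL5 from -2.98 to 2.34.

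The average standardised profile of the 8 tested genes was highest in untreated replicate 1 and lowest in raffinose replicate 1. Of 11959 other genes with a group mean of at least 1 FPKM, the 5 with the most similar profile over 6 libraries were AL390039, RPL21P2, ABHD5, RPL21P28 and TARS1, with Pearson r from 0.975 to 0.988. With 6 points and so many genes searched, values of this size are a description only.

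Other genes of the pathway were taken from 9 lists named by role, of which 145 genes are not among the 10, and 113 of these were tested. By edgeR 0 were called, the log2 fold change was above 0 for 57 and below 0 for 56, and the median was 0.016. At an unadjusted p under 0.05 there were 30, or 26.5%, against 13.3% of all tested genes. The groups did not overlap for 36 of the 113, and for 21.5% of all tested genes. By list, with the 10 genes included, this ran from 0 of 5 NF-kB subunits to 6 of 12 genes of the list of AP-1 and stress kinase factors. DESeq2 called 4 of the 113 higher and 9 lower, against 1.35% higher and 2.17% lower of all tested genes. The lists were chosen with earlier results of these data known, so these shares, and those of single lists below, are a description only.

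The other 4 NF-kB subunit genes were not called by edgeR or DESeq2. NFKB1, the precursor of p50, had a log2 fold change of -0.11 (SE 0.065) and NFKB2, the precursor of the RELB partner p52, had -0.03 (SE 0.069). NFKB2 was at 11.8, 11.6 and 11.6 FPKM in raffinose libraries, against 12.2, 11.5 and 11.02 FPKM in untreated ones, with overlap of the groups. RELA, which encodes p65, was at 12.8, 9.37 and 9.85 FPKM with raffinose, against 18.1, 10.5 and 10.8 FPKM without, with replicate 1 highest in each group. Its log2 fold change was -0.34 (SE 0.25, 95% interval -0.94 to 0.26), and that of REL, which encodes c-Rel, was 0.08 (SE 0.26, 95% interval -0.55 to 0.72).

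Among 15 tested IkB and feedback inhibitor genes, 7 had a log2 fold change above 0 and 8 below, and edgeR called 0, with 3 at an unadjusted p under 0.05, or 20.0% against 13.3% of all tested genes. CYLD, a deubiquitinase that restrains NF-kB, had a log2 fold change of 0.44 (SE 0.090, edgeR adjusted p = 0.151; DESeq2 adjusted p = 0.00377). NFKBIB, the gene of IkB-beta, had -0.35 (SE 0.092, edgeR adjusted p = 0.213) and OTULIN, which trims linear ubiquitin chains, 0.19 (SE 0.058). The groups did not overlap for these 3 of the 15 genes, a share of 20.0% that is near the 21.5% of all tested genes. TAX1BP1, an adaptor of A20, had 0.12 (SE 0.069).

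Of the 26 genes of the IKK complex and its activators, 15 had a log2 fold change above 0 and edgeR called 0, with 5 at an unadjusted p under 0.05, or 19.2% against 13.3% of all tested genes. IRAK1, a kinase below the interleukin 1 receptor, had a log2 fold change of -0.27 (SE 0.052), and BIRC2, the ubiquitin ligase cIAP1, had 0.35 (SE 0.072). DESeq2 called both, with adjusted p of 0.00789 and 0.00784, and it called 3.51% of all tested genes. RIPK1, a kinase at the TNF receptor, had 0.18 (SE 0.057), and MYD88, the adaptor of interleukin 1 and Toll-like receptors, had -0.31 (SE 0.098). The TNF receptor genes TNFRSF1B (-0.66, SE 0.11) and TNFRSF1A (-0.50, SE 0.11) were called lower by DESeq2 and had an edgeR adjusted p of 0.117 and 0.160. TNFRSF1B was at 4.18, 4.46 and 4.17 FPKM in raffinose libraries, against 7.38, 6.30 and 6.04 FPKM in untreated ones. The receptor subunit genes IL1RAP and OSMR had 0.47 (SE 0.13) and -0.15 (SE 0.071), with edgeR adjusted p of 0.233 and 0.446. The gene of the TNF receptors' ligand, TNF, was listed with no reads in any library.

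Among other secreted factors, the monocyte chemokine CCL2 was at 4.77, 4.77 and 3.95 FPKM with raffinose, against 6.49, 6.83 and 6.26 FPKM without. Its level was thus above that of each of the 5 CXC chemokine genes in every library. The log2 fold change of CCL2 was -0.57 (SE 0.12, edgeR adjusted p = 0.151; DESeq2 adjusted p = 0.00263). LIF, a cytokine of the IL6 family, was at 11.99, 12.2 and 12.4 FPKM with raffinose, against 14.1, 15.9 and 15.9 FPKM without (log2 fold change -0.36, SE 0.063, edgeR adjusted p = 0.123; DESeq2 adjusted p = 9.8e-04). IL11, also of that family, had 0.35 (SE 0.12, edgeR adjusted p = 0.303). CXCL16 had 0.38 (SE 0.19), CCL5 -0.73 (SE 0.49) and IL32 -0.61 (SE 0.24), and edgeR called 0 of these 3 genes. DESeq2 did not call CXCL16 or IL32, and it gave no adjusted p for CCL5. IL15 had counts of 16, 11 and 10 with raffinose, against 0, 7 and 0 without, and raffinose replicate 1 alone was above the limit of 12. Its groups did not overlap, as for 21.5% of all tested genes. The log2 fold change of IL15 was 2.33 (SE 1.2, 95% interval -0.66 to 5.32, edgeR adjusted p = 0.483). Where IL6 had almost no reads, IL6ST was at 16.7 to 21.1 FPKM in raffinose and 14.0 to 17.3 FPKM in untreated libraries.

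**Figure D4:**
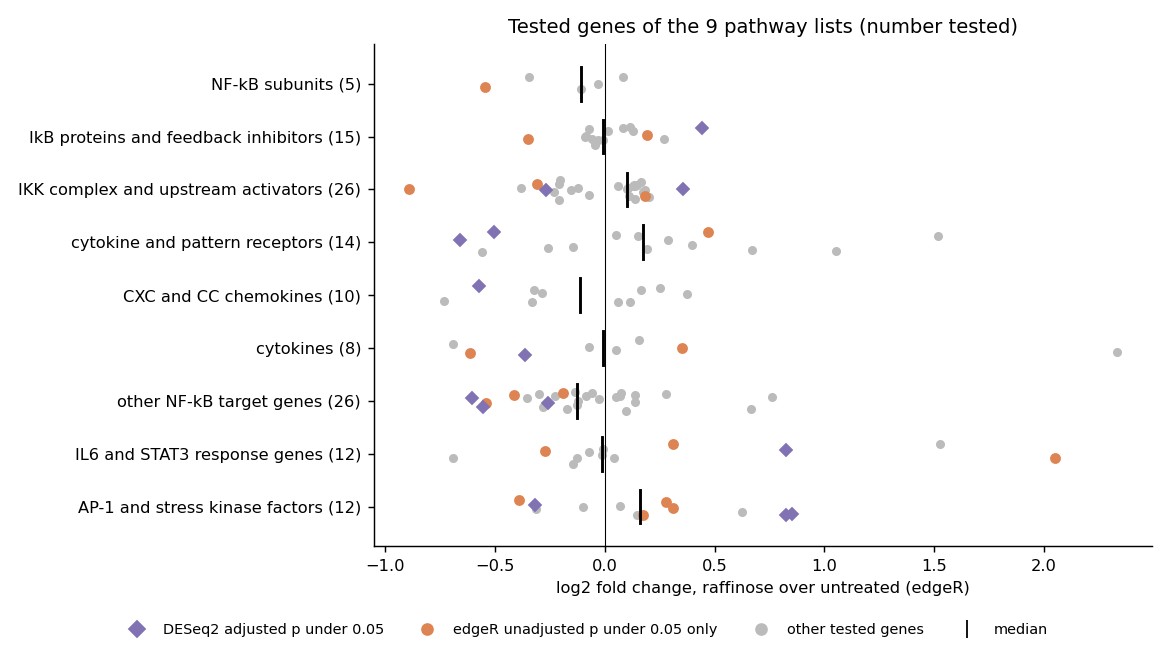
Log2 fold change of raffinose over untreated (horizontal axis, edgeR) of each tested gene in the 9 pathway lists, which include those of the 10 genes that fall in them, with the median of each list as a bar. Medians lie between -0.12 and 0.17, and 0 genes were called by edgeR.

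Marker genes were checked against the label of an epithelial carcinoma line. The keratin genes KRT8 and KRT18 were at 246 FPKM or more in every library, and CDH1, the gene of E-cadherin, was at 9.08 FPKM or more. Of the 10 epithelial markers, which also held SOX9, CLDN4 and KRT80, 8 reached a group mean of 1 FPKM. Some were low, with EPCAM at 0.113 to 0.290 FPKM, KRT7 at 0.726 to 1.22 FPKM and MUC1 at 0.893 to 1.24 FPKM over the 6 libraries. KRT19 was at 0.228 FPKM or less, with no reads in untreated replicate 2. Of 12 leukocyte markers 4 had no reads and 1, CD68, reached a group mean of 1 FPKM. CD68 also occurs in other cells, and the pan-leukocyte gene PTPRC reached at most 0.0109 FPKM. The summed level of the 10 epithelial markers was 735 to 759 FPKM in raffinose libraries and 963 to 1062 FPKM in untreated ones. KRT8 and KRT18 made up 87.1% to 92.0% of it over the 6 libraries. Without KRT8 and KRT18 the sum was 68.7 to 90.8 FPKM with raffinose and 84.6 to 124.6 FPKM without. The leukocyte markers summed to 7.33 to 9.62 FPKM with raffinose and 12.7 to 16.3 FPKM without, of which CD68 made up 89.9% to 96.7%. Without CD68 they summed to 0.553 to 0.741 FPKM with raffinose and 0.499 to 1.37 FPKM without. The 11 fibroblast markers, of which only 2 reached a group mean of 1 FPKM, summed to 44.8 to 47.5 FPKM with raffinose and 48.1 to 52.5 FPKM without. The 6 endothelial markers summed to at most 0.116 FPKM. The part of these differences in the values above was not tested, and in bulk RNA fewer cells of a type and less RNA per cell cannot be told apart.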

How the data were processed

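Poly(A) RNA of 6 PANC-1 libraries was sequenced as read pairs of 150 bases from strand-marked cDNA, per the labels' protocols. Per the submitters' processing notes the tools were StringTie 1.3.4d, HISAT2 2.0.4, cutadapt 1.9, DESeq2 and edgeR, with no role stated. Build and annotation: not given in the sources used here. Coordinates of genes are those of the deposited table, and 5 of 9 genes start where RefSeq's GRCh38.p14 annotation has a start.

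The authors deposited an FPKM value and an estimated count per gene and library, per the file headers. A gene with a count of 0 is listed at 0.0001 FPKM. The counts, already whole numbers, went unchanged into edgeR 4.0.16 under R 4.3.3 (filterByExpr with a minimum count of 10, TMM scaling, glmQLFit and glmQLFTest, 95% intervals from its SE and degrees of freedom). Alternatives used DESeq2 1.42.0 and limma 3.58.1. The fits were tested on simulated counts. The 10 genes and the lists were chosen with earlier results of these data known. Named pathway genes are those called, or among the 4 smallest p of a list. Receptor and ligand genes, IL6ST and the overlapping genes were named besides. The shorter promoter motif was chosen after CXCL8 was seen to hold no consensus match. Protein identity among the chemokines was not analysed here.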

Additional observations from a re-analysis of the deposited data

How the results depend on the processing

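Each alternative called 0 of the genes it gave an adjusted p for, which were 3 (filter at 1 FPKM) to 10 (no filter) of the 10, with 5 in DESeq2 and 6 for counts divided by 4. Over all genes, against 7 higher and 16 lower, DESeq2 called 254 and 409, a filter at 1 FPKM gave 15 and 27, limma on log2(FPKM + 0.1) 11 higher, and counts divided by 4 gave 11 higher. The replicate number as a block gave 0 higher and 0 lower in edgeR, where 1932 had an unadjusted p under 0.05. With each library left out in turn, 0 to 15 genes were higher and 4 to 13 lower, with the lowest of both without untreated replicate 3 (1969 genes at an unadjusted p under 0.05 in edgeR). The cause of these differences was not tested. Deviations of same-numbered libraries from their group means had correlations of -0.0089, -0.033 and 0.0063, and in 0 of 6 libraries was the own number the best match, so the numbers were not taken as pairs.

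Leaving out a library gave log2 fold changes from -0.54 to 0.022 for CXCL1, -0.22 to 0.28 for CXCL2, -0.71 to 0.017 for CXCL3, -1.33 to 0.26 for CXCL5, -0.14 to 0.46 for CXCL8, -0.19 to 0.0022 for TNFAIP3, -0.12 to -0.021 for NFKBIA and -0.83 to -0.41 for RELB. The lowest adjusted p of RELB over its alternatives was 0.205. Against 0 genes in each pathway and marker list, DESeq2 called 1 among the IkB proteins and feedback inhibitors, 2 in the IKK list, 2 receptors, 1 chemokine, 1 cytokine, 3 other NF-kB targets, 1 IL6 and STAT3 response gene, 3 AP-1 factors, 3 epithelial, 1 leukocyte and 1 fibroblast marker. A filter at 1 FPKM, limma on log2(FPKM + 1), limma on log2(FPKM + 0.1) and counts divided by 4 each called 1 of the other NF-kB targets, and leaving out a library gave 0 to 1 of the IL6 and STAT3 response genes, the 1 being MYC without raffinose replicate 1. At this depth CXCL3, CXCL5, IL6 and IL1A had at most 5.75 estimated read pairs in a library.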

Other observations

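Of the list of other NF-kB target genes, outside the 10, edgeR called 0 and DESeq2 called 3. PLAU, the urokinase gene, was at 47.4, 49.6 and 44.9 FPKM in raffinose libraries, against 68.9, 67.6 and 67.0 FPKM in untreated ones (log2 fold change -0.56, SE 0.065, edgeR adjusted p = 0.0590; DESeq2 adjusted p = 1.0e-07). PTX3, a secreted pattern recognition protein, was at 18.3, 16.3 and 16.0 FPKM with raffinose, against 25.7, 24.3 and 24.9 FPKM without (-0.60, SE 0.081, edgeR adjusted p = 0.0855). SDC4, a heparan sulfate proteoglycan, had -0.26 (SE 0.057), and DESeq2 called these 3 genes lower. PTGES, a prostaglandin synthase, had -0.41 (SE 0.12, edgeR adjusted p = 0.251). Of the 26 tested genes of that list, 17 had a negative log2 fold change, with a median of -0.12, and 6 had an unadjusted p under 0.05 by edgeR, or 23.1% against 13.3% of all tested genes. Over all tested genes DESeq2 called 2.17% lower.

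AP-1 factors, which act beside NF-kB at many cytokine promoters, had differences of both signs. ATF3 was at 4.47, 7.11 and 5.46 FPKM with raffinose, against 3.07, 3.21 and 2.91 FPKM without (log2 fold change 0.85, SE 0.18, edgeR adjusted p = 0.159). FOS had 0.82 (SE 0.20), while FOSL2 had -0.32 (SE 0.063) and FOSL1 -0.39 (SE 0.11). DESeq2 called ATF3 and FOS higher and FOSL2 lower. Their list joins AP-1 and stress kinase factors, and also holds DUSP1, ZFP36, IER2 and IER3. Of its 12 genes edgeR called 0, with 7, DUSP1 among them, at an unadjusted p under 0.05, or 58.3% against 13.3% of all tested genes. DESeq2 called 3.51% of all tested genes. Of 12 tested IL6 and STAT3 response genes edgeR also called 0, with 4 at an unadjusted p under 0.05 (33.3%), and DESeq2 called FOS. MYC had counts of 732, 4159 and 3946 in raffinose replicates 1, 2 and 3, against 841, 515 and 730 in untreated replicates 1, 2 and 3, so that raffinose replicate 1 lay inside the untreated range. Its log2 fold change was 2.05 (SE 0.62, edgeR adjusted p = 0.263), and without raffinose replicate 1 it was 2.51 with an adjusted p of 0.0494 by edgeR. JUNB had a log2 fold change of 0.31 (SE 0.12) and CEBPB -0.27 (SE 0.11).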
